A study of Mus musculus with 6 samples.

Results

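The 10 WNT ligands described here were *Wnt3*, *Wnt3a*, *Wnt4*, *Wnt5a*, *Wnt5b*, *Wnt7a*, *Wnt7b*, *Wnt10a*, *Wnt10b* and *Wnt11*. Their probes were found by gene name among all non-control probes of the array, and the genes are covered by 11 of the 55681 distinct probes, with 2 probes for *Wnt4* and 1 for each of the other genes. The arrays compared organoids grown from the esophagus and the stomach, with 3 arrays per tissue. The labels number the mice 1, 2 and 4 in both tissues, and equal numbers were taken as the same mouse. All organoids were at passage 0, were called controls in their labels, and were taken on day 8, or on day 7 for the stomach array of mouse 4. The labels give neither genotype nor age. The study's methods name wild-type C57BL/6 female mice beside several reporter strains and do not say which mice gave these organoids. Esophageal organoids came from dissociated single cells, and stomach organoids from isolated glands of the corpus. Both media held B27, N2, EGF, noggin, FGF-10, N-acetylcysteine, nicotinamide, an inhibitor of the TGF-β receptor kinase and the ROCK inhibitor Y-27632. The esophageal medium also held forskolin. The stomach medium also held gastrin and medium conditioned with WNT3A and R-spondin1. The tissue, the way it was taken apart and the medium therefore change together, and their parts in any difference below cannot be told apart.

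WNT ligands are lipid-modified glycoproteins that act over short distances, and they bind Frizzled receptors together with a co-receptor. In the beta-catenin branch, binding to Frizzled and LRP5 or LRP6 stops the destruction of beta-catenin, which then works with TCF/LEF factors to switch on targets such as *Axin2*. In the other branches, ligands such as WNT5A and WNT11 act through Frizzled with ROR or RYK receptors on cell shape, polarity and movement. R-spondins bind LGR receptors and hold Frizzled receptors on the cell surface, so that cells respond more strongly to the WNT they meet. The gastric gland relies on WNT and R-spondin for its stem cells. The arrays read the RNA of the organoid cells, not protein added with a medium.

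The probes were 60 bases long, and the WNT genes are related, so the probe sequences are shown first. The first *Wnt4* probe starts at base 605 of the transcript record NM_009523 and spans an exon junction. It is the only one of the 11 whose genome interval in mm9, chr4:136851690-136852258, is 569 bases long and so much longer than the probe itself. It is printed whole. The other probes start further along their transcripts, between bases 1515 and 3748, and the first 30 bases of each are printed, from the 5′ end and in lower case.
Wnt4, probe A_51_P130475: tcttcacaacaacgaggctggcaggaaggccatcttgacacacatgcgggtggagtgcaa
Wnt4, probe A_66_P139703: tatgaggctccttggcattgtgacatcccc
Wnt10a, probe A_51_P171616: tttcacttaacagatatttatttttgcgct
Wnt3a, probe A_55_P2067649: ctttctatgaaagaaattattttagtttat
Wnt7b, probe A_55_P2274592: tctgaagatttactggagaccccacggctc
Wnt5b, probe A_55_P1984976: gactgtcatctctgcccacatgtacagcgt
Wnt5a, probe A_55_P2219765: cctaacccagaggttaccagcctggttttg
Wnt11, probe A_51_P503131: gaaactgataggattaaaaataacctggca
Wnt3, probe A_52_P361534: atttaataatagtacatgagcgcattgtaa
Wnt7a, probe A_52_P79782: cctcagcggtgggtcagtcagtgtctcaca
Wnt10b, probe A_55_P2126363: gggtgggaatggataatttattttactgag
Over the whole 60 bases, the longest run shared by any of the 55 pairs of these probes was 10 bases. The longest run shared with a probe of another WNT ligand was 11 bases, over 132 pairs.

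Of the 11 probes, 6 were higher in esophageal organoids, namely both *Wnt4* probes and those of *Wnt10a*, *Wnt3a*, *Wnt7b* and *Wnt5b*. None was higher in stomach organoids. By gene this was 5 of 10 ligands. A probe passed when limma's adjusted p, with Benjamini-Hochberg adjustment over all 55681 probes, was under 0.05. Over all probes, 5.94% passed as higher in the esophagus and 6.22% as higher in the stomach. With each gene taken at its brightest probe, the shares over 34298 genes were 7.15% and 7.7%. At an unadjusted p under 0.05 the number of ligand probes higher in the stomach was also 0, and with the rule in the study's methods, an unadjusted p under 0.05 and a 1.5-fold change, it stayed at 0, while 9.28% of all probes passed that rule toward the esophagus and 8.85% toward the stomach. The median difference, esophagus minus stomach, was 1.06 over the 11 ligand probes and 0.02 over all probes, both on the log2 scale. All 3 esophageal arrays lay above all 3 stomach arrays for 7 of the 11 probes, against 15.2% of all probes, and for the other 4 the tissues overlapped. In either direction 28.6% of all probes had no overlap. The 5 genes that passed covered both signalling branches. They were 3 of the 6 ligands known mostly for beta-catenin signalling and 2 of the 4 known mostly for acting without it. This grouping follows general knowledge of the ligands, which can act in either branch depending on the receptor. The study's discussion counts *Wnt7b* and *Wnt10a* as important in the branch without beta-catenin. Its results list them among ligands of either branch or both. With the mouse as a replicate block *Wnt7b* did not pass, which left 4 of 10 ligands, 2 of the 6 and 2 of the 4.

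**Figure D1:**
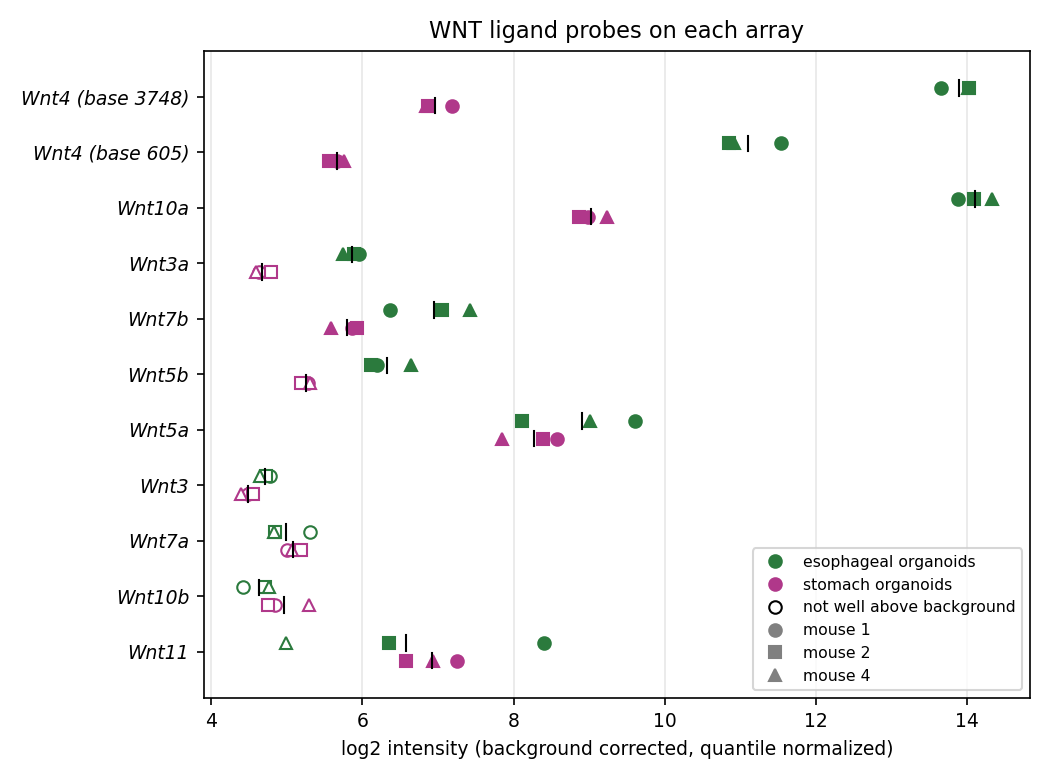
The log2 intensity of each of the 11 probes (horizontal axis) on the 3 esophageal (green) and 3 stomach (magenta) arrays, with the mouse given by the shape of the point, the mean of each tissue by a black bar, and open points for probes not well above background on that array. Levels can be compared within a probe but not between probes. Both *Wnt4* probes and *Wnt10a* show the widest gaps between the tissues.

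The labels fitted the tissue of origin. Of 7 markers of squamous epithelium, 6 were higher in esophageal organoids by their brightest probes. The exception was *Trp63*, whose brightest probe was lower, at a difference of -1.22, while its other 3 probes were higher. All 8 markers of columnar gastric epithelium were higher in stomach organoids. Between 45.5% and 51.1% of spots per array were well above background and 0 were saturated. Esophageal arrays correlated with each other at 0.979 to 0.985, stomach arrays at 0.986 to 0.994, and arrays of different tissues at 0.923 to 0.94, across probes of the log2 table. Esophagus array 4 was alone on its slide and scan. In such bulk samples, fewer cells of a type and less RNA per cell cannot be told apart.

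*Wnt4*, a ligand best known for kidney and female reproductive tract development, showed the largest difference of the 10 genes. The probe at base 3748 (chr4:136855342-136855401, mm9) read 13.65, 14.02 and 14.01 in the esophageal organoids of mice 1, 2 and 4. In the stomach organoids of the same mice it read 7.18, 6.87 and 6.84. These log2 values left a wide gap between the tissues, with arrays of each tissue close together. The means were 13.89 ± 0.21 and 6.96 ± 0.18 (SD, n = 3 each). The difference was 6.93 with a standard error of 0.17 and a 95% interval from 6.52 to 7.33, which is 122-fold, with limma's adjusted p = 3.1e-07. The fold was 92.1 with a background offset of 50 and 159 with the signals scaled to the 75th percentile. Only 0.165% of all probes had a larger difference toward the esophagus, which placed this probe 93rd.

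The *Wnt4* probe across the exon junction gave the same direction at a smaller size. It read 11.54, 10.85 and 10.91 in the esophagus, and 5.66, 5.56 and 5.76 in the stomach. Every array was well above background for this probe too, and the tissues did not overlap. The difference was 5.44 with a standard error of 0.21 and an interval from 4.95 to 5.93, or 43.3-fold, with limma's adjusted p = 2.32e-06, and it ranked 176th. Its size was 4.61 (24.4-fold) with a background offset of 50 and 6.43 (86.3-fold) with the signals scaled to the 75th percentile, and it passed in both. In the deposited values the intervals of the 2 probes did not overlap, whereas with the 75th percentile scaling they did, at 5.72 to 7.14 and 6.59 to 8.04. Both stood in the same order in every mouse, with esophagus above stomach by 6.47, 7.14 and 7.16 at base 3748 and by 5.88, 5.28 and 5.14 at base 605.

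*Wnt10a*, a ligand of the beta-catenin branch known for its roles in teeth, hair and other ectodermal epithelia, came next. Its probe (chr1:74850633-74850692, mm9, transcript NM_009518) read 13.88, 14.09 and 14.33 in esophageal organoids and 8.98, 8.87 and 9.23 in stomach organoids. The tissues were far apart, and the stomach arrays were also well above background, so that the gene was detected in both. The means were 14.10 ± 0.22 and 9.03 ± 0.19 (SD, n = 3 each). The difference was 5.07 with a standard error of 0.18 and an interval from 4.66 to 5.48, or 33.6-fold, with limma's adjusted p = 1.4e-06. Within mice 1, 2 and 4 it was 4.90, 5.22 and 5.09, a narrow range next to its size. It ranked 210th of all probes toward the esophagus.

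*Wnt3a*, which encodes a ligand of the beta-catenin branch and whose protein was added to the stomach medium, was dim in both tissues. Its probe (chr11:59061556-59061615, mm9) read 5.96, 5.89 and 5.75 in esophageal organoids and 4.63, 4.79 and 4.59 in stomach organoids. The 3 esophageal arrays were well above background and none of the stomach arrays was. For such a probe the stomach has only a bound, and on each array it was set to the higher of the probe's own signal and the lowest signal of any probe well above background. On that footing, and with the low signals as the deposited table treats them, the mean *Wnt3a* signal in esophageal organoids was higher by at least 2.14-fold. Such a bound, here and below, concerns the means of the arrays and takes no account of the spread between them. The measured difference was 1.2 with a standard error of 0.14 and a 95% interval from 0.87 to 1.54, and limma's adjusted p was 0.00122. The size depended on the processing, from 0.68 with the offset of 50 to 3.12 with the 75th percentile scaling. The call held in both. The smaller size lies under the bound, which therefore holds for the deposited values only.

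*Wnt5b*, a ligand that acts mostly without beta-catenin, was also a low signal. It read 6.20, 6.11 and 6.65 in the esophagus and 5.28, 5.19 and 5.31 in the stomach (chr6:119382550-119382609, mm9). The tissues did not overlap, and again only the 3 esophageal arrays were well above background. The measured difference was 1.06, or 2.09-fold, which in the deposited values is also the bound, with a standard error of 0.18 and limma's adjusted p = 0.00679. The difference was 0.68 with the offset of 50 and 2.41 with the 75th percentile scaling, with the call kept in both, so the bound again holds for the deposited values only.

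*Wnt7b*, a beta-catenin ligand made by many developing epithelia, was above background on all 6 arrays. It read 6.37, 7.06 and 7.43 in the esophagus and 5.87, 5.93 and 5.58 in the stomach (chr15:85366896-85366955, mm9). The groups did not overlap, but the esophageal arrays were spread out, with mouse 1 close to the stomach values. The difference was 1.16 with a standard error of 0.27 and an interval from 0.53 to 1.79, or 2.23-fold, with limma's adjusted p = 0.0296. Within mice 1, 2 and 4 it was 0.49, 1.13 and 1.85. With the mouse as a replicate block the adjusted p rose to 0.0536 at the same size. The call was kept in 7 of 15 alternatives and lost in 8, where the adjusted p went up to 0.0972. When arrays were left out one at a time, the call was kept only without esophagus mouse 1.

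**Figure D2:**
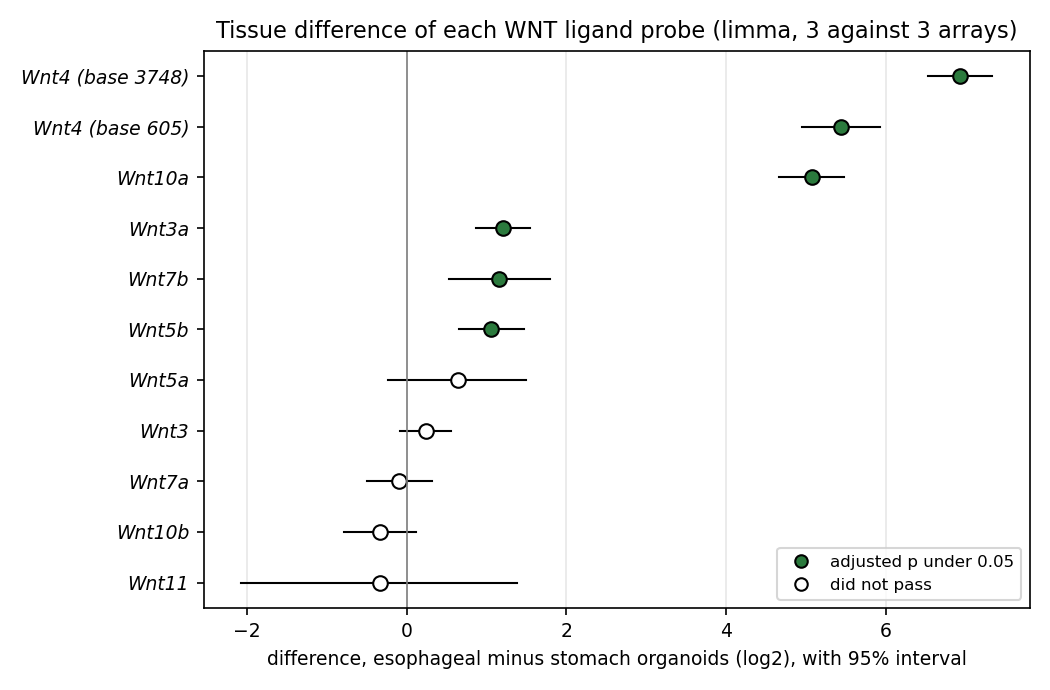
The log2 difference, esophageal minus stomach organoids, of each of the 11 probes with its 95% interval from limma (3 against 3 arrays), filled where the adjusted p was under 0.05. The 6 filled points all lie to the right of 0, and the interval of *Wnt11* is the widest, from -2.07 to 1.38.

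*Wnt5a*, the best known ligand of the polarity branch and in the gut made largely by stromal cells, was well above background on all 6 arrays and did not pass. It read 9.60, 8.11 and 9.01 in esophageal organoids and 8.57, 8.39 and 7.85 in stomach organoids (chr14:29336664-29336723, mm9). The tissues overlapped, since the esophagus of mouse 2 lay below 2 of the 3 stomach arrays. The difference was 0.64 with an interval from -0.23 to 1.5 and limma's adjusted p = 0.369. That interval leaves room for a difference of up to 1.5 toward the esophagus. Without esophagus mouse 2 the difference was 1.04, and without esophagus mouse 1 it was 0.29.

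*Wnt11*, a ligand of the polarity branch, varied more between esophageal arrays than any other member. It read 8.40, 6.35 and 4.99 in the esophagus, and 7.25, 6.58 and 6.94 in the stomach (chr7:106001985-106002045, mm9). The esophagus of mouse 1 was the highest of all 6 arrays, and that of mouse 4 the lowest and not well above background. The means were 6.58 ± 1.72 and 6.93 ± 0.33 (SD, n = 3 each), and the difference was -0.34 with limma's adjusted p = 0.848. Between arrays of the same mouse number, 1, 2 and 4, it was 1.15, -0.23 and -1.96, which mainly follows the spread of the esophageal arrays. It was 0.45 without esophagus mouse 4 and -1.26 without esophagus mouse 1, and neither passed.

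Among the esophageal arrays, both *Wnt5a* and *Wnt11* were highest in mouse 1. Of 14 markers of fibroblasts, smooth muscle, immune and endothelial cells, 4 were highest and 8 lowest on that array. *Cd68*, a macrophage marker, read 14.77, 12.94 and 11.80 in the esophagus of mice 1, 2 and 4, which is the order of *Wnt11*, and 11.04, 11.22 and 12.36 in the stomach. *Tagln*, a smooth muscle marker, read 10.41, 10.13 and 8.55 in the esophagus, again the order of *Wnt11*, and 9.30, 8.76 and 10.76 in the stomach. *Acta2*, also a smooth muscle marker, read 4.93, 6.69 and 4.97 in the esophagus and so was highest in mouse 2, where *Wnt5a* was lowest. Of 9 fibroblast and smooth muscle markers 0 passed in either direction. The log2 of their summed signal ranged from 9.29 to 10.64 in the esophagus and from 9.43 to 10.95 in the stomach. Most of that signal was *Tagln*. *Lum*, *Postn*, *Pdgfra* and *Myh11* reached no level well above background. Of 3 immune and 2 endothelial markers 0 passed, and *Ptprc*, the general leukocyte marker, stayed near background throughout. Over the immune list the log2 of the summed signal ranged from 11.88 to 14.78 in the esophagus and from 11.17 to 12.45 in the stomach, and was nearly all *Cd68*. The other detected immune marker, *Cd3e* of T cells, read 7.39, 7.23 and 7.55 in the esophagus, with mouse 4 highest. The part of other cell types in the spread of *Wnt5a* and *Wnt11* was not tested.

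The remaining ligands were not detected above background on any array, in either tissue. These were *Wnt3*, *Wnt7a* and *Wnt10b*, all of the beta-catenin branch, at chr11:103679038-103679097, chr6:91314653-91314712 and chr15:98602209-98602268 in mm9. *Wnt3* read 4.78, 4.72 and 4.65 in the esophagus and 4.49, 4.56 and 4.40 in the stomach, which did not overlap but did not pass, with a difference of 0.24 and limma's adjusted p = 0.359. *Wnt7a* read 5.31, 4.85 and 4.83 against 5.0, 5.19 and 5.07. *Wnt10b* read 4.42, 4.71 and 4.77 against 4.85, 4.75 and 5.29. For the latter pair the tissues overlapped, with differences of -0.09 and -0.33 and adjusted p-values of 0.831 and 0.366. Over all probes, 43.0% were likewise not well above background on any of the 6 arrays.

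**Figure D3:**
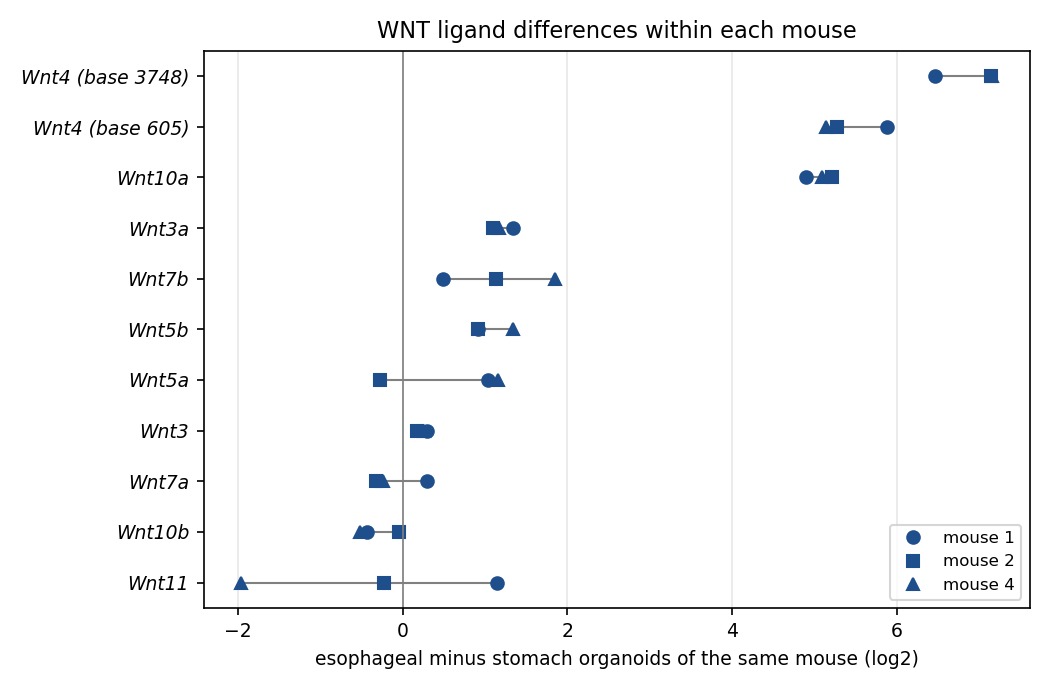
The log2 difference, esophageal minus stomach organoids, taken within each mouse for the 11 probes, with grey lines joining the lowest and highest mouse. The differences of *Wnt3a* and *Wnt5b* are taken against stomach signals near background. *Wnt10a* runs from 4.90 to 5.22, whereas *Wnt11* runs from -1.96 to 1.15 across 0.

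The mouse genome holds several of these ligands as pairs of close paralogs, and in each of 4 such pairs 1 member passed and the other did not, with the call of *Wnt7b* lost in 8 of 15 alternatives. *Wnt3a* passed and *Wnt3* did not, *Wnt5b* passed and *Wnt5a* did not, *Wnt7b* passed and *Wnt7a* did not, and *Wnt10a* passed and *Wnt10b* did not. In the pairs of *Wnt3*, *Wnt7a* and *Wnt10b*, these genes stayed near background on all 6 arrays, so their tissue differences cannot be set against those of the paralogs. The intervals of *Wnt5b* (0.65 to 1.47) and *Wnt5a* (-0.23 to 1.5) overlapped. The difference within a pair was not tested.

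Some WNT genes lie side by side on a chromosome, and 4 of the 10 have a WNT ligand as a near neighbour. *Wnt6*, a beta-catenin ligand 19.1 kb from *Wnt10a* between probes, read 8.88, 8.39 and 8.95 in the esophagus and 4.83, 4.92 and 5.05 in the stomach, where no array was well above background. In the deposited values its mean signal was at least 13.9-fold higher in esophageal organoids, with limma's adjusted p = 8.77e-06. The measured fold was 7.01 with the offset of 50 and 76.5 with the 75th percentile scaling. *Wnt9a*, 85.3 kb from *Wnt3a*, read 9.44, 8.19 and 8.06 against 5.64, 5.41 and 6.01, a difference of 2.87 with limma's adjusted p = 0.0017, and was well above background on 2 of the 3 stomach arrays. For these linked pairs, then, both genes were higher in the esophagus. The other linked pairs, *Wnt3* with *Wnt9b* (90.1 kb) and *Wnt10b* with *Wnt1* (21.9 kb), had no gene that passed, with differences of 0.12 for *Wnt9b* and 0.03 for *Wnt1*.

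The promoters of 7 of the 10 genes were held in a RefSeq table of GRCm38.p6, as 10 windows, and the 250 bases before each start were searched on both strands. *Wnt10a*, *Wnt7b* and *Wnt5a* had no window there. The counts below therefore leave out *Wnt10a* and *Wnt7b*, which passed. The windows of *Wnt4* and *Wnt3a*, the ligands with the largest difference and with the protein added to the stomach medium, are shown with the GC box letters GGGCGG (or their reverse complement) in capitals.
Wnt4, chr4:137277385-137277634, plus strand: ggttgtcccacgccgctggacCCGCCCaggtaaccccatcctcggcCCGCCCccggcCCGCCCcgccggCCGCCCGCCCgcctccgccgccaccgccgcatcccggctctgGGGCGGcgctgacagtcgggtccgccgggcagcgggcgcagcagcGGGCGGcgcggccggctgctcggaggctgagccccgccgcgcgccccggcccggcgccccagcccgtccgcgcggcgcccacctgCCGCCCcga
Wnt3a, chr11:59290752-59291001, minus strand: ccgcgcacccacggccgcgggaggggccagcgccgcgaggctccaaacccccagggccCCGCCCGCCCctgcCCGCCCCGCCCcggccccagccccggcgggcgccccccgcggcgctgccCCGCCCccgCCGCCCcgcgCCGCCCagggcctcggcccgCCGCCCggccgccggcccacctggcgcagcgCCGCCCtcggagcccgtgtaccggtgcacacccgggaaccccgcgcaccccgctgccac
The GC content was 85.2% for *Wnt4* and 87.6% for *Wnt3a*, against a median of 52.4% over 32851 promoters. GGGCGG was in 7 of the 10 windows and in 32.7% of all promoters. The TCF/LEF core CTTTGA was in 2 of the 10 windows, 1 each of *Wnt11* and *Wnt5b*, and in 13.8% of all promoters. The AP-1 letters TGANTCA were in 1 window, of *Wnt5b* (6.75% of all promoters), and TATAAA in 1 window, of *Wnt11* (12.4%). These matches describe the letters only.

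The pattern of the *Wnt4* probe at base 3748 over the 6 arrays was most like those of *Lgals7*, a galectin of stratified epithelia, *Ptprz1*, a receptor phosphatase, and *Phlda3*, each with Pearson's r = 0.9998 among 25851 probes that stood well above background in at least 1 tissue, on its 3 arrays. In all, 266 probes had an r over 0.99. With 2 groups of 3 arrays such a value mostly restates the tissue difference.

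The wider pathway was read from 7 lists that hold 100 genes in all, each gene at its brightest probe. Of these, 17 genes (17.0%) were higher in esophageal and 14 in stomach organoids, against 7.15% and 7.7% of all genes. Of the 9 other WNT ligands 2 were higher in esophageal organoids, *Wnt6* and *Wnt9a*, and 0 in stomach organoids. Of 12 genes that lipidate, carry, release or inactivate WNT proteins, 0 passed in either direction by their brightest probes, although 1 of the 2 probes of the cargo receptor gene *Tmed10* was higher in the stomach. *Porcn*, the acyltransferase that attaches the lipid, differed by -0.32 (adjusted p = 0.751), and *Wls*, the carrier of lipidated WNT to the cell surface, by -0.01 (adjusted p = 0.98), both by limma.

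Receptors moved both ways. Of 18 receptors and co-receptors, 5 rose toward the esophagus and 4 toward the stomach. *Fzd10* and *Fzd2*, which are Frizzled receptors, were higher in esophageal organoids by 4.81 and 2.37. *Fzd10* was well above background on only 1 of the 3 stomach arrays, so its difference was taken mostly against signals near background. *Ror2*, a receptor for WNT5A, had a mean signal at least 29.5-fold higher in stomach organoids in the deposited values (16.1-fold with the offset of 50 and 142-fold with the 75th percentile scaling). *Fzd4* fell by 2.28 in the esophagus. Of 9 genes of the R-spondin axis 3 passed toward the stomach and 0 toward the esophagus, among them *Lgr5* and *Lgr4*. For *Lgr5* the bound on the mean fold was 38.6 in the deposited values (19.7-fold and 316-fold measured under these settings). The 95% interval of its log2 difference, from -6.07 to -4.64, reached below that bound. Of 18 secreted antagonists and their partners, 5 were higher in the esophagus, including *Sostdc1* and *Sfrp1*, and *Kremen2* was higher in the stomach. The stomach arrays of *Sostdc1* were all near background, and the bound on its mean fold was 7.59 in the deposited values. The 95% interval of its log2 difference was wide, from 1.9 to 4.36, and so reached below that bound. Its measured log2 difference fell from 3.13 to 2.45 without esophagus mouse 1. With the offset of 50 *Sostdc1* did not pass (limma's adjusted p = 0.0584). *Sfrp1* was higher by 2.16 on the log2 scale. Only 1 of its 3 stomach arrays was well above background, so this size too was taken mostly against signals near background.

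Inside the cell, 5 of 20 core genes passed toward the esophagus and 0 toward the stomach by their brightest probes, with *Tcf7l1*, a TCF factor that often represses, higher by 1.70 and the kinase gene *Csnk1a1* by 1.18. *Tcf7l2*, another TCF factor, did not pass by its brightest probe (-1.11, limma's adjusted p = 0.061), but 1 of its 3 probes was higher in the stomach. Of 14 beta-catenin targets, 6 passed toward the stomach and 0 toward the esophagus by their brightest probes. *Cd44*, one of these targets, did not pass by its brightest probe (1.12, limma's adjusted p = 0.153), but its other 3 probes were higher in the esophagus. *Sp5* had a mean signal at least 64.6-fold higher in stomach organoids in the deposited values (32.5-fold with the offset of 50 and 516-fold with the 75th percentile scaling). *Sox9* fell by 3.09 in the esophagus. *Axin2*, the feedback inhibitor most used as a readout of the branch, read 5.04, 5.33 and 5.13 in the esophagus and 7.65, 7.21 and 8.31 in the stomach (limma's adjusted p = 0.000639). Only 1 of its 3 esophageal arrays was well above background. Of the genes named here, *Fzd2*, *Lgr5* and *Axin2* each have 2 probes, of which only the brighter passed. Of 35 list genes with several probes, 13 had some probes that passed and some that did not, and 0 had probes that passed in opposite directions.

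**Figure D4:**
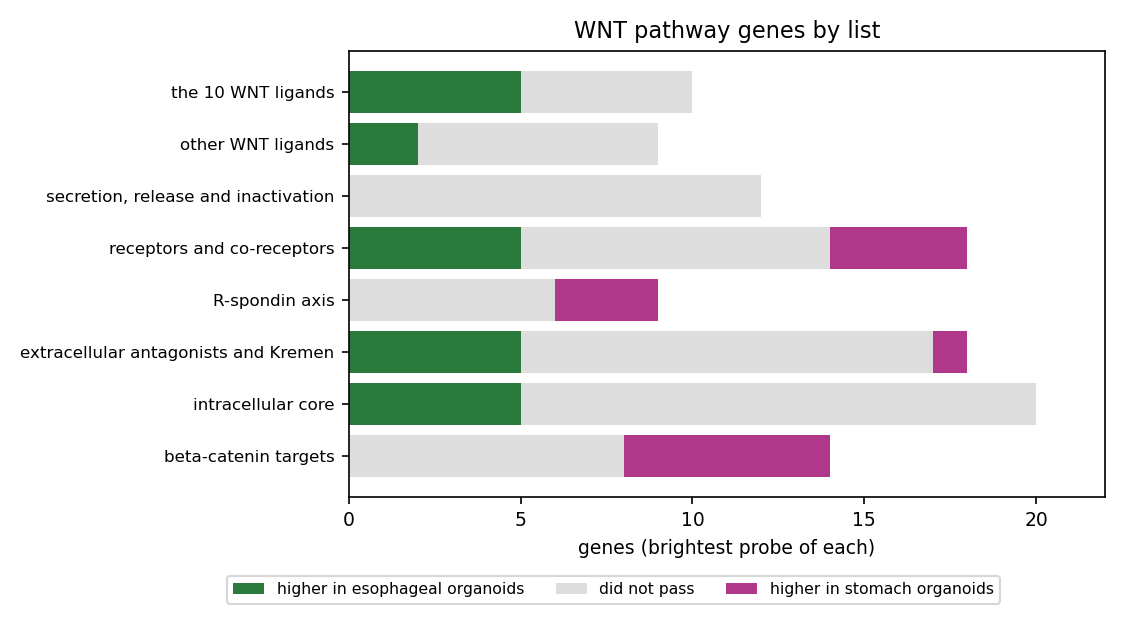
The number of genes (horizontal axis) of the 10 WNT ligands and of each of 7 pathway lists that were higher in esophageal organoids (green), did not pass (grey) or were higher in stomach organoids (magenta) at an adjusted p under 0.05. The 10 ligands show 5 green and 0 magenta genes, and the 14 beta-catenin targets show 0 green and 6 magenta genes.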

How the data were processed

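Organoid RNA was labelled with Cy3 and hybridised to single-colour Agilent mouse 8x60K arrays, read with Feature Extraction 11.5.1.1 per the file headers. The methods state background correction, quantile normalization and limma. The main values are the deposited log2 table of the authors. It matched the scanner medians after normexp with an offset of 15 and quantile normalization, with a median absolute difference of 0.00433 (largest 0.0726), and the 2029 cells it leaves empty are spots marked as outliers. The deposited scanner intensity values served for background marks and alternatives. Spots of a probe were averaged, control spots left out, and esophagus minus stomach fitted with limma 3.58.1 in R 4.3.3 over 55681 probes, without a block, since the methods name none. Probe coordinates in mm9 were copied from the scanner files. The fit was tested on simulated data.

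The labels number mice 1, 2 and 4 in both tissues. Deviations of arrays with the same number correlated at 0.025, 0.0119 and -0.00787 over 55641 probes, and those with other numbers at -0.0726 to 0.0405. The pairing therefore comes from the labels only, and the mouse as a replicate block was an alternative. Other alternatives were scanner means with offsets of 16 and 50, 75th percentile scaling, outlier spots kept, a filter on dim probes, a variance trend, the slide as a term, each array left out and the methods' rule. The scanner medians were chosen after seeing the data.

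Members and lists were chosen with earlier results of these data known. Named genes were all members, their linked neighbours and the 3 probes most like the member of lowest adjusted p. Up to 2 genes per list and direction were added, with the largest change among passing genes well above background. *Porcn*, *Wls*, *Axin2* and *Lgr5* were named in any case. *Cd44*, *Tcf7l2*, *Tmed10*, *Cd68*, *Cd3e*, *Tagln* and *Acta2* were chosen after their values were seen. *Trp63*, *Lum*, *Postn*, *Pdgfra*, *Myh11* and *Ptprc* were also named for what their values showed.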

Additional observations from a re-analysis of the deposited data

How the results depend on the processing

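The number of ligand probes higher in esophageal organoids was 6 and lay between 5 and 6 under every alternative, and the number higher in stomach organoids was 0 under each of them. Both *Wnt4* probes, *Wnt10a*, *Wnt3a* and *Wnt5b* passed in all 15 alternatives that refitted the data. *Wnt7b* lost its call in 8 of them, namely the offset of 50, the mouse as a replicate block, the slide as a term, and without stomach mouse 1, 2 or 4 or esophagus mouse 2 or 4. With the mouse as a replicate block the count of ligand probes was 5, as *Wnt7b* was lost, the list counts were 18 and 13, and no other ligand call changed. Of 162 values of single ligand probes under alternatives, 149 kept direction and side of the threshold, 8 lost the call and 5 changed sign, none of which passed. These were *Wnt7a*, at 0.01 with either offset on the scanner means and with outlier spots kept, and *Wnt11*, at 0.45 with the slide as a term and without esophagus mouse 4, which are the same comparison because that array was alone on its slide. With each array left out in turn *Wnt11* ranged from -1.26 to 0.45. The 100 list genes gave 14 to 25 higher in the esophagus and 13 to 21 higher in the stomach. The methods' rule gave 23 and 21, against 17 and 14. The 75th percentile scaling moved the median difference of all probes from 0.024 to 0.195. The filter on dim probes left no value for *Wnt3*, *Wnt7a* and *Wnt10b*. Signal over background limits what can be said of these genes. The folds of both *Wnt4* probes, *Wnt3a*, *Wnt5b*, *Wnt6*, *Ror2*, *Lgr5*, *Sostdc1* and *Sp5* depended on the processing. The 75th percentile scaling took the place of the quantile normalization and used the scanner's processed signal. It therefore changed more than the treatment of low signals, and these parts were not separated. The 3 arrays per tissue limit the precision of all values.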
